A study of Homo sapiens with 6 samples.

Results

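The S100 proteins, the proteins of the cornified envelope and the desmosome proteins that tie keratinocytes together were followed across 6 expression arrays of SUM159 oncospheres. Members were taken by a rule on gene symbols: S100 genes (18), small proline-rich protein genes of the SPRR family (7), late cornified envelope genes of the LCE family (4), the desmosomal cadherins DSG1 to DSG4 and DSC1 to DSC3 (7), the desmosomal plaque genes DSP, JUP, PKP1 and PKP3 (4), and IVL, LORICRIN, FLG, RPTN, TGM1 and TGM3 (6). This gave 46 of the 19775 genes measured by a probe set of their own, and 63 of the 54613 probe sets tested. Where a gene has several probe sets, the one with the highest mean is given, and others are named where they are used.

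SUM159 is an established human breast cancer cell line. The control group (3 arrays) had been infected with lentivirus carrying the empty vector pLVX-puro, and the second group (3 arrays) with pLVX-puro-hSCGB3A1, which carries the cDNA of SCGB3A1, a small secreted protein of the secretoglobin family. Both groups shared all else that the labels give: selection in puromycin at 2 µg/ml for 7 days, then 5 days of growth as floating oncospheres on ultra-low attachment plastic in HuMEC medium, from 12500 cells/ml. The labels name no clone and call the 3 replicates of a group biological, but the sources used here do not say whether these were separate infections, so the spread that p-values measure may be technical.

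S100 proteins are small calcium-binding proteins of the EF-hand type that work as dimers inside cells and, once released, as ligands of receptors such as AGER and TLR4. The cornified envelope is the protein shell that replaces the plasma membrane of dying keratinocytes: transglutaminases cross-link involucrin, loricrin, the SPRR and LCE proteins and other precursors to each other beneath the membrane. Desmosomes are the junctions that anchor keratin filaments, with cadherins that cross the membrane, the armadillo proteins JUP and PKP1 to PKP3 beneath them, and desmoplakin (DSP), which reaches from these to the filaments.

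The promoters of these families differ in their letters, and 4 are shown here as examples from the classes that the results fall into. DSP had the smallest p among the members. S100A9 is a brightly read S100 gene, and IVL and FLG are envelope genes with dim readings that lie in the same chromosomal cluster as S100A9. Each sequence runs 5′ to 3′ from 250 bases before to 50 bases after the annotated start in the RefSeq annotation of GRCh38.p14, namely chr6:7541421-7541720 on the plus strand for DSP, chr1:153357604-153357903 on the plus strand for S100A9, chr1:152908296-152908595 on the plus strand for IVL and chr1:152325190-152325489 on the minus strand for FLG. Capitals mark every match on either strand to TATAAA (a form of the TATA box), TGANTCA (the core of the AP-1 site) and GGGCGG (the core of the GC box). Copies of GGGCGG that overlap each other were all counted, and matches to different motifs cannot overlap.
DSP: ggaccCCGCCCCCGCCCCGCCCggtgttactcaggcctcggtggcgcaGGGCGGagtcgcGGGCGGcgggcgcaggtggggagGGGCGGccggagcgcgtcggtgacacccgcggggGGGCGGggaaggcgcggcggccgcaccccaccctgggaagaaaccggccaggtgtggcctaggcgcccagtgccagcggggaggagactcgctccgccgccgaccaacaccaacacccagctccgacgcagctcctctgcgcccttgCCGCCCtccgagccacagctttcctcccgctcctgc
S100A9: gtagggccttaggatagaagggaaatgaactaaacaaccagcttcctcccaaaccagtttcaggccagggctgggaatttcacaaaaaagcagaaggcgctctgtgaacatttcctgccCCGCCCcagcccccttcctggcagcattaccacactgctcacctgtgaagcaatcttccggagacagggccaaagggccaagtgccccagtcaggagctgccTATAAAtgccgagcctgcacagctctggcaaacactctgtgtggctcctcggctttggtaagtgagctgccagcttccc
IVL: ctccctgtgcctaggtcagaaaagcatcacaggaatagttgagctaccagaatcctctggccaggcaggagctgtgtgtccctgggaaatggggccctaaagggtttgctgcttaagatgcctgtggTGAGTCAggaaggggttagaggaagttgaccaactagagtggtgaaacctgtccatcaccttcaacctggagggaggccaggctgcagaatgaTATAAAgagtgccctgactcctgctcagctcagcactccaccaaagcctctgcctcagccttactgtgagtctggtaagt
FLG: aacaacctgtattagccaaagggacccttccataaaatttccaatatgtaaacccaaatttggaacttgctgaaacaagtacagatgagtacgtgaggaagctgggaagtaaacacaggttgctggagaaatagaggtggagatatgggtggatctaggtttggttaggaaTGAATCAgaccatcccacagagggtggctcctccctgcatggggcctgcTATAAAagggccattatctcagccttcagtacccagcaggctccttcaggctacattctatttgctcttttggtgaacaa

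Such windows were found in the RefSeq table for 40 of the 46 members, 49 windows in all. TATAAA stood in 11 of 14 windows of envelope and transglutaminase genes, and in 9 of these 14 a copy started 28 to 32 bases before the start, as in IVL and FLG above. TGANTCA stood in 8 of the 14, both motifs together in 6, and GGGCGG in 0. Of the 24 S100 windows, 9 held TATAAA, 4 held TGANTCA and 7 held GGGCGG. Only the window of S100A9 held both TATAAA and GGGCGG. Of the 11 windows of desmosome genes, 0 held TATAAA, 0 held TGANTCA and 6 held GGGCGG. The DSP window held 8 matches to GGGCGG, the most among them. In these motifs the printed windows of DSP and S100A9 are thus not typical of their classes. Among all 35116 windows of the table, 11.5% held TATAAA, 7.71% held TGANTCA, 1.31% held both and 45.0% held GGGCGG. These are counts of letters in fixed windows and were not tested.

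The arrays were of like distribution, with deposited values between 5.66 and 14.7 on the log2 scale. Control replicate 2 correlated with the other arrays at 0.989 to 0.993 and lay at 30.7 on the first principal component, with the other 5 between -16.1 and 6.13. Bright readings are those of probe sets whose mean signal was above the upper quartile of all probe sets (8.16), middling ones lay between that and the median (6.91), and dim ones below the median. With the highest probe set of each gene, 7723 of the 19775 genes were bright, 4933 middling and 7119 dim. The terms describe a reading, which depends on the probes as well as on the transcript, and the table gives no detection calls. Of 14 markers of the line, the mesenchymal VIM, AXL, CDH2 and ZEB1 were bright, as were the keratins KRT5, KRT14, KRT8 and KRT18 and the receptor ERBB2, while the luminal GATA3 and ESR1 were middling and CDH1, EPCAM and PGR dim. Bright markers were thus found on both the mesenchymal and the epithelial side. Of the 14, KRT5 and KRT14 had an unadjusted p under 0.05 with a positive fold change, beside 3.93% of all genes. Each gave 0.56 on the log2 scale (limma, adjusted p = 0.17 and 0.29). ZEB1 had one with a negative fold change (-0.25, limma adjusted p = 0.72), beside 2.89%. With the variance prior following the signal level, 1 of the 14 passed adjusted p 0.05 in limma. The probe set of SCGB3A1 did not read higher where the label names that gene (log2 fold change -0.17 ± 0.10 SE, limma adjusted p = 0.84), and whether it reads the cDNA of the vector is not given in the sources used here, so directions are those of the labels. Of 12 leukocyte markers, 0 were bright, 4 middling and 8 dim, and 0 had an unadjusted p under 0.05.

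No member passed the test over all probe sets. By limma, 0 of 46 members had an adjusted p under 0.05, where 0.0303% of all genes did. An unadjusted p under 0.05 with a positive fold change was found for 2 of the 46, DSP and S100Z, beside 3.93% of all genes. With a negative one there were 0 members, beside 2.89% of all genes. The largest difference among the members was that of DSP, with a log2 fold change of 0.45, and every other member lay between -0.17 and 0.20. The median over the 46 members was 0.028, with 25 positive and 21 negative, where the median over all genes was 0.011. In bulk RNA, fewer cells that express a gene and less of its RNA per cell cannot be told apart.

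The arrays labelled SCGB3A1 differed among themselves more than the groups did in this median, and the controls less. Relative to the control mean, the median over members was 0.0054, 0.0084 and -0.0077 in the 3 controls, and 0.042, 0.051 and -0.056 in replicates 1, 2 and 3 labelled SCGB3A1. The labelled arrays thus lay on both sides of the controls. Without SCGB3A1 replicate 3, 7 members had an unadjusted p under 0.05 and a positive fold change (S100Z, LCE1B, DSP, DSG3, PKP3, PKP1 and SPRR2G), where 5.72% of all genes did. Without SCGB3A1 replicate 1 or 2 DSP was the 1 such member, where 2.66% and 2.72% of all genes were called. With a negative fold change, S100A5 had an unadjusted p under 0.05 without control replicate 1 or SCGB3A1 replicate 3 (3.26% and 4.20% of all genes), and FLG without SCGB3A1 replicate 2 (1.96%).

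**Figure D1:**
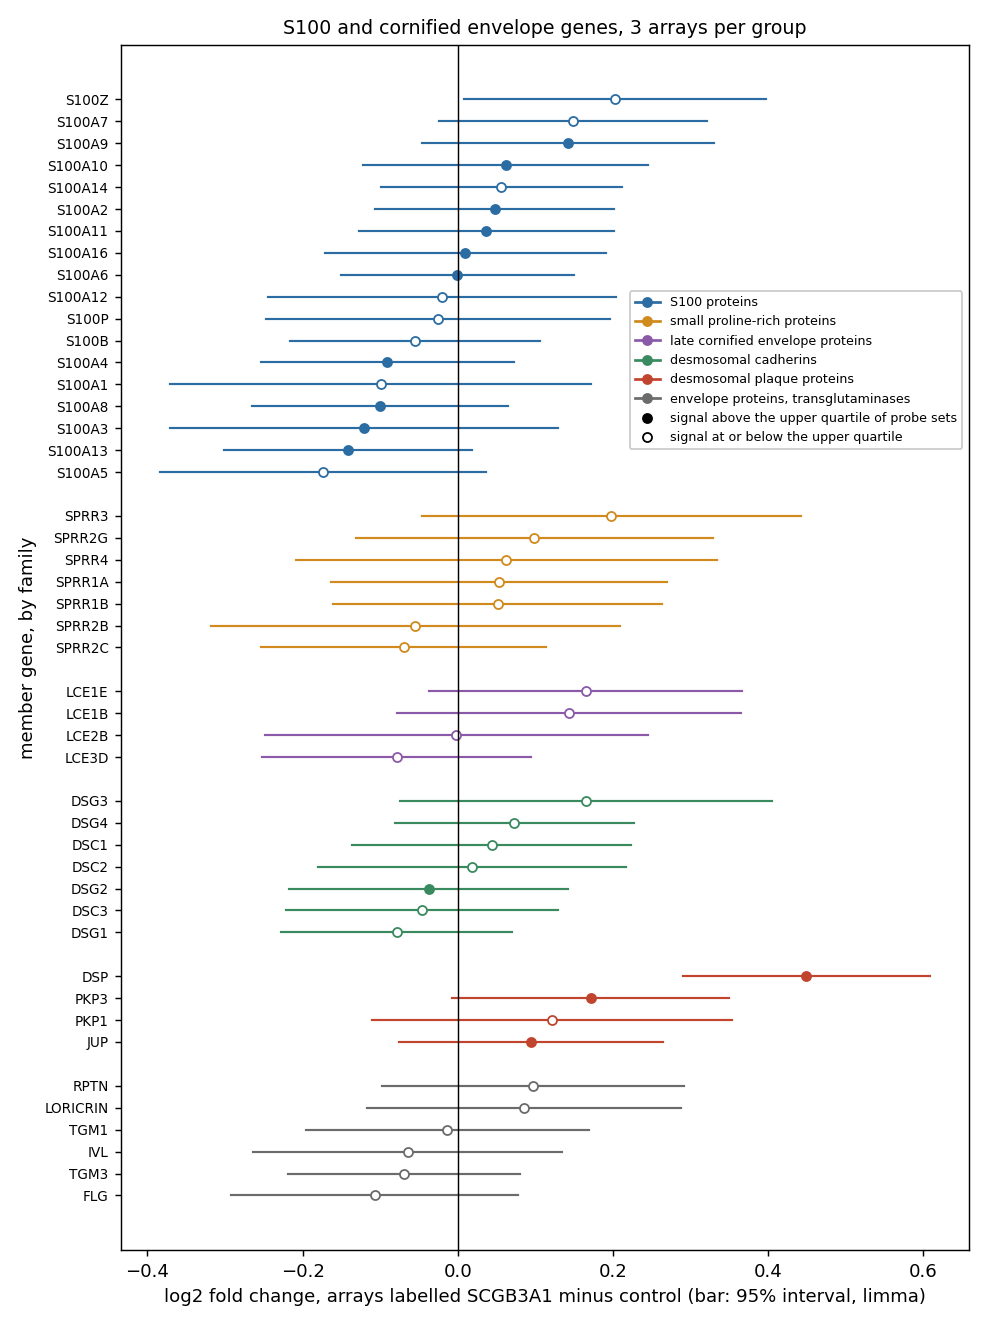
Log2 fold change of each member, arrays labelled SCGB3A1 minus control (horizontal axis), with the 95% interval from limma (bars, 3 arrays per group) and colours for the families; filled circles are bright probe sets, above the upper quartile of mean signal. DSP, at 0.45, stands to the right of all others, and S100Z is the only other interval that does not reach 0.

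The desmosomal plaque genes were the family with the highest median (0.15). All 4 of these members had a positive log2 fold change, as did 10728 of 19775 genes. PKP2, a plakophilin gene outside the rule, gave -0.06 at a dim reading (limma, adjusted p = 0.945). DSP encodes desmoplakin, which links the plaque to keratin filaments. It read 9.91, 9.93 and 9.92 in the control arrays and 10.44, 10.39 and 10.27 in the arrays labelled SCGB3A1. The 3 labelled arrays all lay above the 3 controls, which differed from each other by little (SD 0.0068, against 0.087 in the labelled arrays). The fold change was 0.45 ± 0.07 on the log2 scale (SE), or 1.37-fold, with a 95% interval of 22.2% to 52.5% higher. Its adjusted p was 0.14 by limma, which misses the threshold, and an exact two-sided permutation test of the 3 against 3 arrays gave p = 0.1, the smallest that this design allows. DSP ranked 12 of 19775 genes by p, and 28 genes (0.142%) had a larger change in either direction. It has a single probe set, so no second reading of the same transcript was at hand. With the variance prior following the signal level DSP passed (limma, adjusted p = 0.036), and in the other 13 alternatives its adjusted p ran from 0.051 to 0.91.

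In the other plaque members the values were smaller and the groups overlapped. PKP3, plakophilin-3, which clusters desmosomal proteins at the membrane, read 8.55, 8.42 and 8.67 in control and 8.74, 8.78 and 8.65 in the arrays labelled SCGB3A1. The lowest labelled array lay just below the highest control, and the log2 fold change was 0.17 ± 0.08 (SE; limma, adjusted p = 0.82), with 0.08 for its second probe set. JUP, plakoglobin, which binds the tails of desmosomal and classical cadherins, read 10.08, 10.15 and 9.97 in control and 10.12, 10.11 and 10.25 in the labelled arrays (0.09, adjusted p = 0.89 by limma). PKP1, plakophilin-1 of suprabasal epidermis, read 7.27, 7.02 and 7.28 against 7.51, 7.32 and 7.10, a log2 fold change of 0.12 (adjusted p = 0.89 by limma) in which its replicates overlap. The readings of PKP1 were middling, and those of the other 3 plaque members bright.

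**Figure D2:**
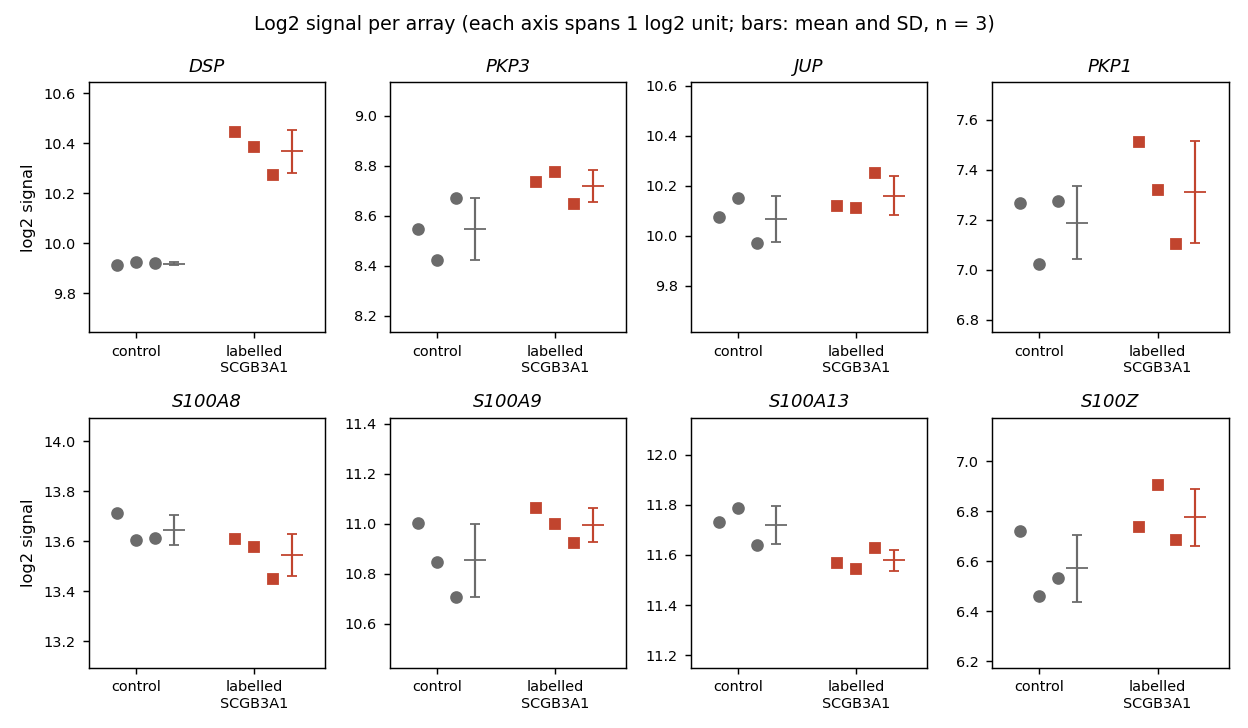
Log2 signal on each array (vertical axis, every panel spanning 1 log2 unit) for the 4 plaque members and 4 S100 genes. Control arrays are circles, labelled arrays squares, and bars the mean and SD of 3 arrays. DSP and S100A13 are the panels in which the groups do not overlap, and only for DSP is the distance wide beside the spread.

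Of the 7 desmosomal cadherins, DSG2 was bright and the other 6 were dim. DSG2, desmoglein-2, the desmoglein of simple epithelia and basal cells, read 10.96, 11.16 and 11.05 in control and 10.93, 11.00 and 11.14 in the arrays labelled SCGB3A1, with the groups fully mixed (-0.04, limma adjusted p = 0.96). Its second probe set read 9.43, 9.45 and 9.49 against 9.36, 9.25 and 9.23, so that all 3 labelled arrays lay below the controls there. That probe set gave -0.18 ± 0.07 on the log2 scale (SE; limma, unadjusted p = 0.030 and adjusted p = 0.78), the only other probe set of a member with an unadjusted p under 0.05. DSG3, the desmoglein of the basal and spinous layers, read 6.86, 6.66 and 6.94 against 6.95, 7.22 and 6.79, a value of 0.17 (limma, adjusted p = 0.86) carried mainly by labelled replicate 2. DSC2 gave 0.02 and DSC3, the desmocollin of basal cells, -0.05, and their other probe sets lay between -0.07 and 0.04.

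DSG1, the desmoglein of the upper epidermis, and DSG4, that of hair, were the cadherins whose groups did not overlap, in opposite directions. DSG1 read 6.10, 6.14 and 6.09 in control and 6.01, 6.06 and 6.02 in the labelled arrays (-0.08, limma adjusted p = 0.89). DSG4 had the identical control values and read 6.14, 6.16 and 6.25 in the labelled arrays (0.07, limma adjusted p = 0.90). The same 3 control values were held by 6 probe sets, one of DSC3 among them, and 396 to 757 probe sets on each array shared 1 value, so equal readings were common at the low end of these arrays. Over all members, 2 lay higher without overlap (DSP and DSG4) and 3 lower (S100A13, DSG1 and TGM3), beside 7.09% and 5.24% of all genes.

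Of the S100 genes some read brightly and some dimly, and no gene of either kind passed the adjusted threshold. Bright readings were found for 10 of the 18, S100A2, S100A3, S100A4, S100A6, S100A8, S100A9, S100A10, S100A11, S100A13 and S100A16. Their log2 fold changes ran from -0.14 to 0.14 with a median of 0.0045, and leaving out S100A3 no 95% interval among the other 9 reached beyond 18.8% lower or 25.7% higher. The median over all 18 was -0.010, with 8 positive and 10 negative.

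S100A8 and S100A9 form the calprotectin dimer, which is abundant in neutrophils and is made by stressed keratinocytes. S100A8 read 13.71, 13.60 and 13.61 in control and 13.61, 13.58 and 13.45 in the arrays labelled SCGB3A1. S100A9 read 11.00, 10.85 and 10.71 in control and 11.06, 11.00 and 10.92 in the labelled arrays. The partners had fold changes of opposite sign, -0.10 for S100A8 (95% interval -0.27 to 0.06; limma, adjusted p = 0.88) and 0.14 for S100A9 (-0.05 to 0.33; limma, adjusted p = 0.85), and in both the groups overlapped. Without control replicate 1 the value of S100A9 was 0.22 (limma, unadjusted p = 0.033 and adjusted p = 0.77), and without control replicate 3 it was 0.069. The second probe set of S100A8 gave -0.16 (limma, adjusted p = 0.82), with its 3 labelled arrays below the controls. The leukocyte markers above, which cover lymphocytes as well as neutrophils, were dim or middling, and the source of this RNA was not tested.

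S100A10 is the partner of annexin A2 at the plasma membrane, and ANXA2 was also bright. S100A10 read 12.86, 12.73 and 13.02 in control and 12.87, 12.96 and 12.96 in the labelled arrays, a log2 fold change of 0.06 with the labelled values inside the range of the controls, and ANXA2 gave -0.01. S100A4, a myosin-binding S100 protein known from motile and mesenchymal cells, read 13.65, 13.52 and 13.54 against 13.46, 13.42 and 13.56 (-0.09, limma adjusted p = 0.88). S100A6, calcyclin, read 13.87, 13.87 and 13.92 against 13.87, 13.87 and 13.93. These are near-equal values, with a 95% interval of -0.15 to 0.15. S100A2, an S100 protein of basal epithelial cells, gave 0.05, S100A11 0.04 and S100A16 0.01.

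S100A13, which takes part in the release of proteins that lack a signal peptide, was the bright S100 gene with the smallest p. It read 11.73, 11.79 and 11.64 in control and 11.57, 11.54 and 11.63 in the arrays labelled SCGB3A1. The groups did not overlap, though the highest labelled array and the lowest control lay next to each other. The log2 fold change was -0.14 ± 0.07 (SE; limma, adjusted p = 0.82), with -0.06 for the second probe set.

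Among the dim S100 genes, S100Z, a family member found outside the cluster described below, was the one with the smallest p. S100Z read 6.72, 6.46 and 6.53 in control and 6.74, 6.90 and 6.68 in the labelled arrays, so that the highest control lay above the lowest labelled array. Its log2 fold change of 0.20 ± 0.09 (SE) had an unadjusted p of 0.042 and an adjusted p of 0.80 by limma. S100A7, psoriasin, an antimicrobial S100 protein of inflamed skin and of some breast carcinomas, read 6.28, 6.48 and 6.25 against 6.50, 6.46 and 6.50 (0.15, limma adjusted p = 0.83), where control replicate 2 was level with the labelled arrays and the other 2 controls lay below. S100P, a placental and carcinoma S100 protein, gave -0.03, and the groups were mixed. S100A5 had the lowest fold change of all members (-0.17, limma adjusted p = 0.83).

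Along chromosome 1, 30 of the 46 members lie in 1 cluster, the epidermal differentiation complex. In the RefSeq order, S100A10 and S100A11 come first, both bright. The 15 envelope genes from RPTN to LORICRIN follow, of which 0 were bright, 4 middling and 11 dim. Then come 13 S100 genes from S100A9 to S100A1, with 8 bright, 2 middling and 3 dim. The median log2 fold changes of these stretches were 0.049, 0.053 and -0.020. Of the 16 members elsewhere, 7 cadherins lie together on chromosome 18.

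**Figure D3:**
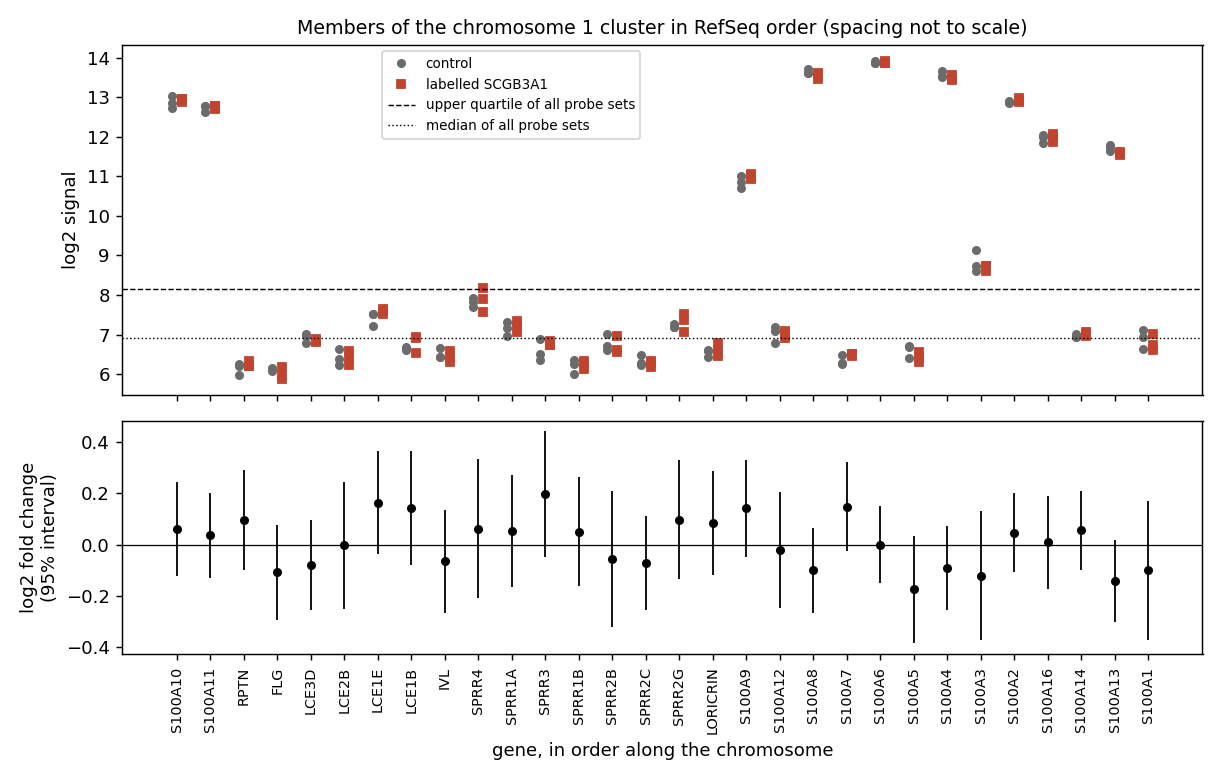
Members of the chromosome 1 cluster in their order along the chromosome (horizontal axis, equal spacing), with the log2 signal on each array above (control as circles, labelled arrays as squares, lines for the median and upper quartile of all probe sets) and the log2 fold change with its 95% interval below. S100 genes, bright and dim, lie on both sides of a stretch of 15 envelope genes that all average below the upper quartile, and the intervals of all 30 genes include 0.

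The envelope precursors outside the S100 family gave no value past either threshold. In all, 0 of the 7 SPRR, 4 LCE and 6 other genes had an unadjusted p under 0.05 by limma. Among all genes, 3.93% had one with a positive fold change and 2.89% with a negative one. Of these 17 members, 12 were dim, beside 7119 of all 19775 genes. The families had medians of 0.053 for SPRR, 0.071 for LCE and -0.039 for the genes of involucrin, loricrin, filaggrin, repetin and the transglutaminases.

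SPRR3, a small proline-rich protein of the oral and oesophageal lining, read 6.36, 6.87 and 6.50 in control and 6.74, 6.75 and 6.85 in the labelled arrays. Control replicate 2 was the highest of all 6, and the difference of 0.20 ± 0.11 on the log2 scale (SE; limma, adjusted p = 0.83) came to 0.35 without it, with an unadjusted p of 0.0011 and an adjusted p of 0.53 by limma. The second probe set of SPRR3 had the opposite sign, -0.11. SPRR2G read 7.19, 7.27 and 7.20 against 7.53, 7.37 and 7.06, a value of 0.10 in which SCGB3A1 replicate 3 was the lowest of all arrays. SPRR1B, cornifin-B, which squamous cells make early in differentiation, gave 0.05 with mixed groups.

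The LCE genes encode precursors that are added late in cornification. LCE1E read 7.53, 7.51 and 7.21 in control and 7.64, 7.59 and 7.51 in the labelled arrays (0.16, limma adjusted p = 0.83), with control replicate 3 alone well below the rest. LCE1B read 6.68, 6.67 and 6.60 against 6.90, 6.95 and 6.53 (0.14, limma adjusted p = 0.87), where labelled replicates 1 and 2 lay above and labelled replicate 3 below all controls. Without SCGB3A1 replicate 3 the value of LCE1B was 0.27, with an adjusted p of 0.41 by limma.

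The remaining envelope genes were close to 0 difference in both directions. IVL, involucrin, the early scaffold of the envelope, read 6.43, 6.65 and 6.44 against 6.31, 6.59 and 6.43 (-0.06). FLG, the precursor of filaggrin, which bundles keratins in the granular layer, read 6.16, 6.09 and 6.12 against 5.99, 6.18 and 5.88 (-0.11), with labelled replicate 2 the highest of all arrays and labelled replicates 1 and 3 the lowest. These 2 genes are the ones whose promoters are shown above with both TATAAA and TGANTCA. RPTN, repetin, a matrix protein of the envelope, gave 0.10 and LORICRIN, the main protein of the mature epidermal envelope, 0.09. TGM1, the membrane-bound transglutaminase that links these precursors, read 7.07, 7.21 and 7.34 against 7.26, 7.18 and 7.13 (-0.01), a middling reading. For these genes the limma adjusted p ran from 0.88 to 0.99. TGM3, the transglutaminase of hair and upper epidermis, gave -0.07 with its 3 labelled arrays below the controls, all within 6.44 to 6.57.

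Several members had more than 1 probe set, which gave a second reading of the same gene. Of these 14 genes, 9 had probe sets of one sign and 5 of both signs (DSC2, S100A6, S100B, SPRR1A and SPRR3). S100A8, S100A13, DSG2 and DSC3 were negative on all their probe sets, and S100A10, DSG3, LCE1E, PKP1 and PKP3 positive on all of theirs. Probe sets of 1 gene share the RNA of each array and are not replicates. The SPRR and LCE families hold genes of similar sequence, so their probe sets may read a relative, which is uncertain here.

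**Figure D4:**
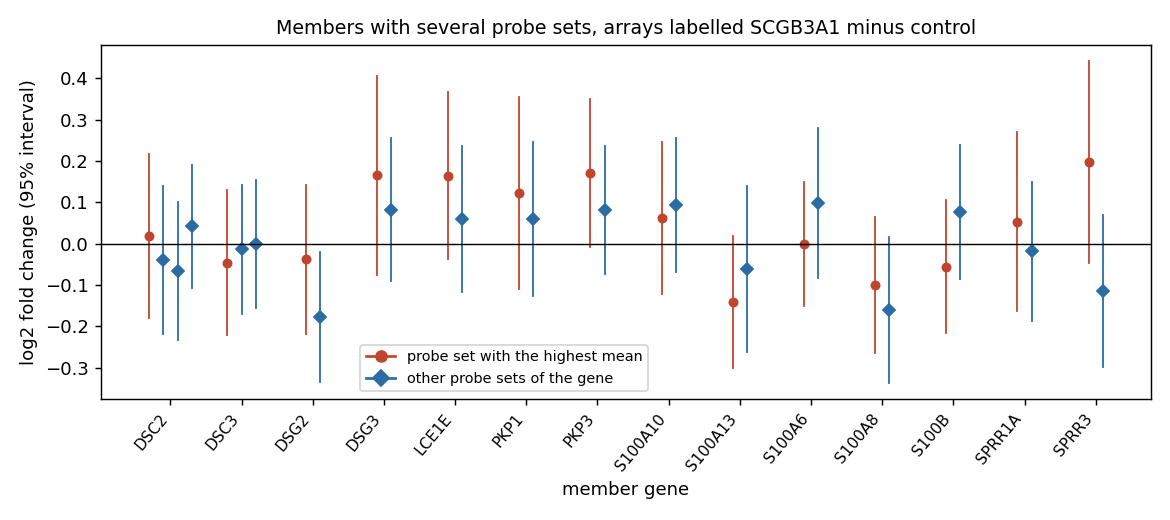
Log2 fold change, arrays labelled SCGB3A1 minus control (vertical axis, 95% interval from limma as bars), for every probe set of the 14 members with several, with circles for the probe set of highest mean and diamonds for the others. SPRR3 spans 0.20 to -0.11, and the second probe set of DSG2, at -0.18, is the one whose interval leaves out 0.

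No other gene of cornification passed the adjusted threshold. Of 43 genes listed, 40 were matched to a probe set, and 0 passed adjusted p 0.05 in limma, while 5 had an unadjusted p under 0.05 with a positive fold change, 12.5% of the list beside 3.93% of all genes, and 0 with a negative one, beside 2.89%. The smallest p belonged to CSTA, cystatin A, a protease inhibitor that is cross-linked into the envelope. It read 8.67, 8.60 and 8.77 in control and 8.97, 9.06 and 8.94 in the labelled arrays, which all lay above the controls (0.31 ± 0.08 SE; limma, adjusted p = 0.54). LY6D, a surface protein of squamous cells, gave 0.27 and SCEL, sciellin, an envelope precursor, 0.22 (limma, adjusted p = 0.72 and 0.76). The median over the 40 genes was 0.024.

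Regulators of keratinocyte differentiation, matched for 24 of 27 genes listed, gave 0 past adjusted p 0.05 in limma. An unadjusted p under 0.05 was found for 6 with a positive fold change, 25% of the list beside 3.93% of all genes. With a negative one there were 0, beside 2.89% of all genes. In the order of p the 6 were MAF, OVOL1, EHF, KLF5, CEBPA and VDR. For each of them the labelled arrays lay above all controls, which a small p makes likely. Over the 24, 8 lay higher without overlap and 2 lower (KLF4 and CASR), beside 7.09% and 5.24% of all genes. MAF, a transcription factor of late keratinocyte differentiation, read 8.71, 8.48 and 9.02 against 9.36, 9.45 and 9.09 (0.56 ± 0.13 SE; limma, adjusted p = 0.48). OVOL1 gave 0.32 and EHF 0.22, both with low readings. The median over the 24 was 0.075.

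Among the partners and receptors of S100 proteins, 20 of 22 were matched. Of these, 1 passed adjusted p 0.05 in limma, where 0.0303% of all genes did. CD36, a scavenger receptor to which fatty acids carried by S100A8 and S100A9 can be delivered, read 8.47, 8.39 and 8.46 in control and 9.12, 9.33 and 9.18 in the arrays labelled SCGB3A1. It rose by 0.77 ± 0.08 on the log2 scale (SE; limma, adjusted p = 0.0057), a call that was lost without SCGB3A1 replicate 2, where the value was 0.71 (limma, adjusted p = 0.060). CD36 has 5 probe sets, and these values are only those of the one with the highest mean. S100A8 and S100A9 themselves had -0.10 and 0.14 in the same arrays. AGER, the receptor RAGE, gave 0.16 at a low reading (limma, adjusted p = 0.82), TLR4 -0.13 and MYH9, the myosin heavy chain bound by S100A4, -0.15 (limma, adjusted p = 0.82).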

How the data were processed

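Affymetrix U133 Plus 2.0 arrays had been hybridised with 100 ng of total RNA per sample. Deposited values are log2 signals that the authors made from the CEL files in Chipster (version 3.8.0) by RMA, robust multiarray averaging, so fold changes of weakly read genes are compressed. Arrays have no read depth, and their number limits the precision. Of 54675 probe sets, 62 manufacturer's controls were set aside, and 54613 were fitted with limma (version 3.58.1, R 4.3.3; lmFit and eBayes, no covariate), with p-values two-sided and adjusted by Benjamini-Hochberg over all of them. Genes were named from the platform annotation, which gave 1 symbol for 41091 probe sets, several for 1801 and none for 11721, and only the first kind was used.

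Named were members with an unadjusted p under 0.05 on any probe set, the 2 with the smallest p of each family and a list of 20 chosen for their role, and of the other lists those past adjusted p 0.05 and the 3 with the smallest p. S100A2, S100A3, S100A5, S100A11, S100A16, DSG4, TGM3, LORICRIN, PKP2, ANXA2, TLR4 and members of count lists were named after their values were seen. The members and lists were chosen with earlier results of these data known. The fit was tested on simulated data. Promoters came from a RefSeq table of GRCh38.p14. Alternatives were a replicate block, a signal trend in the variance, array weights, centring, leaving out dim probe sets or those with a suffix (IDs ending in _x_at or _s_at, which may read several genes, or _a_at, which read several transcripts of a gene), the mean of a gene's probe sets, adjustment over genes, and each array left out.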

Additional observations from a re-analysis of the deposited data

How the results depend on the processing

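With a signal trend in the variance, 1 member (DSP) passed adjusted p 0.05 in limma, beside 13 of all 19775 genes. With that trend 1 member (S100A13) had an unadjusted p under 0.05 with a negative fold change, beside 3.11% of all genes. In the other 13 alternatives 0 members passed. Members with an unadjusted p under 0.05 and a positive fold change numbered 1 with the replicate block (3.56% of all genes), 4 with array weights (4.88%), 1 among the 22 members left without dim probe sets (4.40%), 1 among the 37 left without suffixed probe sets (3.57%), and 1 to 7 with each array left out (2.66% to 5.72%). Those with a negative one numbered 0 to 1 with each array left out (1.88% to 4.20% of all genes). Both filters remove S100Z, and the other causes were not tested. Deviations of arrays with the same replicate number from their group means had r of 0.15, -0.14 and -0.087 for numbers 1, 2 and 3. Not every array correlated best with its own number. As each mean is over only 3 arrays, these values cannot decide whether the numbers mark pairs. The replicate block was therefore run only as an alternative. With it the limma adjusted p of DSP was 0.31.

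Of 27 named members, 18 kept 1 direction under every alternative run. DSC2 turned to -0.018 with array weights and -0.012 with the mean of its probe sets, and S100A6 to 3e-04 with centred arrays and 0.049 with that mean. With each array left out, the values that changed direction ran from -0.12 to 0.068 for S100P, -0.0082 to 0.14 for S100A10, -0.095 to 0.014 for DSG2, -0.072 to 0.096 for DSC2, -0.14 to 0.0066 for IVL, -0.020 to 0.017 for S100A6, -0.051 to 0.13 for SPRR1B, -0.082 to 0.053 for TGM1 and -0.0070 to 0.23 for SPRR2G. Of the 18, 13 moved by over 1.5 times, such as S100A9 (0.069 to 0.22), PKP1 (0.022 to 0.23) and RPTN (0.0056 to 0.15). The cause was not tested. The median over the members ran from -5e-04 to 0.055, and 0 other cornification genes passed in any alternative. Each median differed from the reported 0.028 by less than the spread between arrays (SD 0.043, pooled over the groups). That spread comes mainly from the labelled arrays and is wider than 0.028 itself, so it is a loose measure of stability. Where readings are dim, RMA compresses differences, so small values there say little.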
